A study of Arabidopsis thaliana with 12 samples.

Results

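The 10 genes described here encode enzymes of the carotenoid pathway and the xanthophyll cycle of Arabidopsis thaliana. They were chosen by name and function, with no threshold on a measured value, but with earlier results of these data known. All 10 passed the filter on low values, among 18373 gene models tested of 40215 in the table. The samples were 4-day-old seedlings, labelled as cotyledon material, of the T-DNA insertion mutant *gun1-102* and of its parent ecotype Col-0. Mutant seedlings were sorted by the colour of their cotyledons into white (*gun1W*), marbled (*gun1M*) and green (*gun1G*) classes, which therefore share 1 allele and 1 genetic background, and each of the 4 groups had 3 libraries. All were grown without inhibitor on half-strength Murashige and Skoog medium with 1% sucrose, at 22 °C with 16 h of light (100 μmol m-2 s-1 of photons) and 8 h of dark. GUN1 is a plastid pentatricopeptide repeat protein of plastid-to-nucleus signalling, and the question was how transcript levels of the pathway differed between the colour classes and the wild type.

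Carotenoids are made in plastids by enzymes that the nucleus encodes. Phytoene synthase joins a pair of geranylgeranyl diphosphate molecules, desaturases and an isomerase turn phytoene into lycopene, and lycopene is then cyclised either on both ends to β-carotene or, with lycopene ε-cyclase, to α-carotene, the precursor of lutein. β-carotene is hydroxylated to zeaxanthin, which zeaxanthin epoxidase and violaxanthin de-epoxidase interconvert with violaxanthin as light changes. In leaves these pigments harvest light and protect the photosystems, and plants that cannot accumulate them bleach in the light.

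The deposited unit was TPM, a transcript's share of a library after division by its length. Values here are scaled TPM, in which the median nuclear gene has 1 level in every library; *gun1W* libraries were multiplied by 0.538 to 0.691 for this, *gun1M* by 0.908 to 1.16, *gun1G* by 1.16 to 1.27 and Col-0 by 1.21 to 1.34, so the median nuclear gene stood higher in white seedlings in TPM as deposited. Between 17940 and 18383 gene models had at least 1 TPM in a *gun1W* library, 15831 to 17059 in *gun1M*, 15827 to 16080 in *gun1G* and 15439 to 16047 in Col-0; read depth is unknown. The model AT3G06365 held between 0.219% and 19.5% of a library's TPM, and this share varied within each mutant class. *GUN1* averaged 32.8 ± 6.84, 28.7 ± 6.35 and 25.7 ± 4.77 scaled TPM in *gun1W*, *gun1M* and *gun1G*, against 45.5 ± 1.31 in Col-0 (SD, n = 3 each), below every Col-0 library in all 9 mutant libraries, with adjusted p = 0.0898, 0.026 and 0.0263 by limma. The paper reported that the later exons of *GUN1* had no reads in any mutant class, so the mutant values do not measure intact transcript. Of 8 root markers, 6 passed the filter in this cotyledon-labelled material, and all 8 summed to 27.4 to 31.1 scaled TPM in *gun1W* libraries, 21.2 to 24.3 for *gun1M*, 19.3 to 24.5 for *gun1G* and 23.1 to 31.3 for Col-0. The 4 mesophyll markers summed to 15567 to 18467 scaled TPM in *gun1W* libraries, 24283 to 34836 for *gun1M*, 30231 to 37728 for *gun1G* and 24299 to 26835 in Col-0. *RBCS1A* made up most of this sum, with a mean of 21677 of 25442 in Col-0, and the markers did not move together. Against Col-0, *RBCS1A*, *RCA*, *CA1* and *LHCB1.2* changed by -0.63, -0.09, -0.22 and -1.54 on the log2 scale in *gun1W*. The same 4 changed by 0.20, 0.31, 0.41 and -0.73 in *gun1M* and by 0.51, 0.38, 0.18 and -0.16 in *gun1G*. Fewer cells of a type and less RNA per cell cannot be told apart in these bulk samples, and the part of either in the values below was not tested.

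Every pathway gene that passed the test against Col-0 was higher in the mutant class, with *PSY* and *LUT2* higher in all 3 classes and *LYC* and *BETA-OHASE1* in the white and marbled ones. Summed over the 10 genes, scaled TPM was 157, 151 and 149 in *gun1W*, 164, 161 and 163 in *gun1M*, 139, 138 and 150.2 in *gun1G*, and 87.3, 109 and 124 in Col-0, so that all 9 mutant libraries stood above the 3 wild-type ones. In *gun1W* 4 of 10 members passed an adjusted p of 0.05 (limma over all 18373 gene models), all of them higher, where 27.7% of all models passed and 15.1% passed as higher. In *gun1M* 5 of 10 passed, all higher, against a background of 29% in either direction and 15.4% as higher. In *gun1G* 2 of 10 passed, both higher, where 9.38% passed in either direction and 5.75% as higher. The median change of the members was 0.42, 0.36 and 0.32 on the log2 scale in *gun1W*, *gun1M* and *gun1G*, beside medians of -0.0042, -0.0063 and -0.0016 over all models tested. On log2(scaled TPM + 1), a change of at least 2-fold was reached by *BETA-OHASE1* alone, in *gun1W* and *gun1M*. At that size 11.8% and 13% of all models were called in these comparisons. In *gun1G* 0 of 10 members reached it, where 4.57% of all models were called. In each of the 3 classes 5 members had an unadjusted p under 0.05 by limma at any size, and the share of all models under that p was not counted. Without the first Col-0 library 2 members passed in *gun1W* and 1 in *gun1G*, and without any 1 of the *gun1G* libraries 1 passed in *gun1G*; without Col-0 library 3, 2 members reached 2-fold in *gun1M* and 1 in *gun1G*. The 3 comparisons share the Col-0 libraries.

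**Figure D1:**
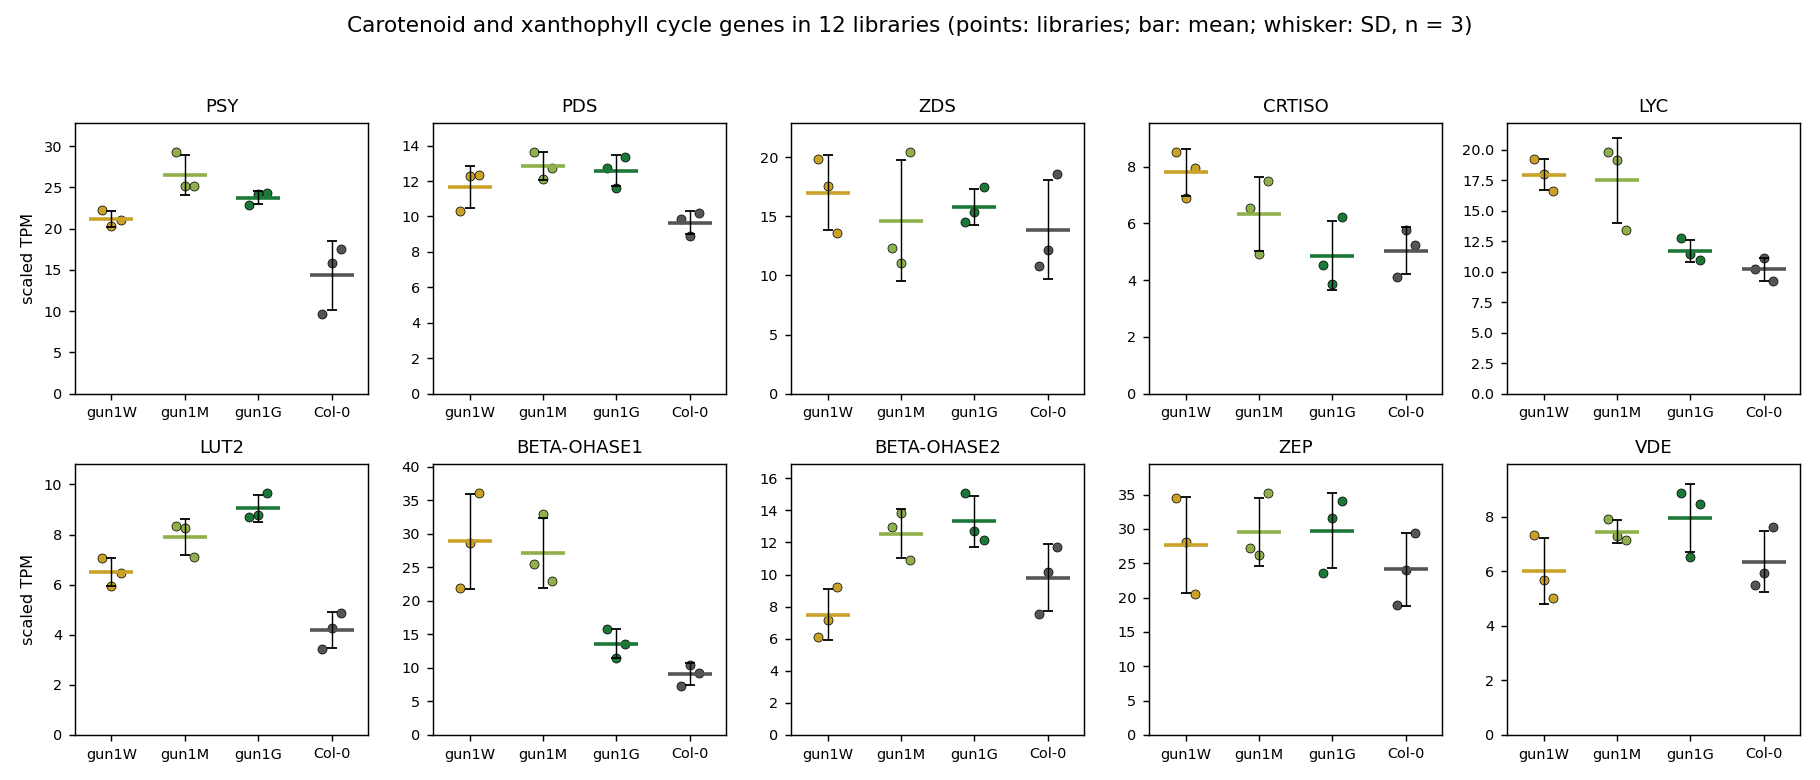
Scaled TPM (y axes, from 0) of the 10 genes in the libraries of *gun1W*, *gun1M*, *gun1G* and Col-0; points are libraries, bars are means and whiskers are SD (n = 3). *BETA-OHASE1* averaged 28.9 in *gun1W* and 27.1 in *gun1M*, against 13.6 in *gun1G* and 9.02 in Col-0, while the groups of *ZDS*, *ZEP* and *VDE* overlap.

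**Figure D2:**
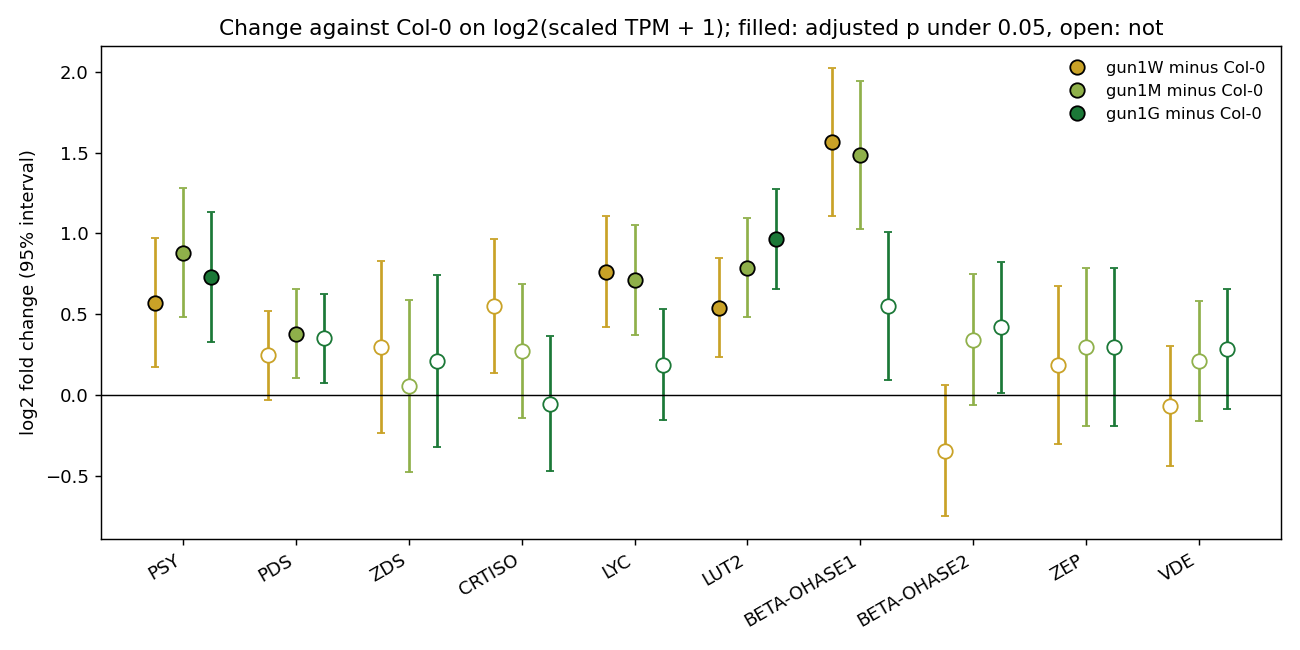
Change against Col-0 on log2(scaled TPM + 1) (y axis) for each gene (x axis), with 95% intervals from limma; filled points passed an adjusted p of 0.05. *PSY* and *LUT2* are filled in all 3 mutant classes, *LYC* and *BETA-OHASE1* in *gun1W* and *gun1M*, and *PDS* in *gun1M*.

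*PSY* (AT5G17230, chromosome 5, 5659554 to 5662997, minus strand, 6 to 8 exons in TAIR10.1), the only phytoene synthase gene of Arabidopsis and the entry step of the pathway, was higher in all 3 mutant classes. It had 22.2, 20.3 and 21.0 scaled TPM in *gun1W*, 29.3, 25.1 and 25.2 in marbled *gun1M* and 22.8, 24.2 and 24.3 in green *gun1G*, against 9.64, 15.8 and 17.6 in Col-0. Every mutant library lay above every Col-0 library, and the first Col-0 library lay well below the other two. The log2 change was 0.57 ± 0.18 in *gun1W* (SE, adjusted p = 0.038), 0.88 ± 0.18 in *gun1M* (adjusted p = 0.00534) and 0.73 ± 0.18 in *gun1G* (adjusted p = 0.0314). The *gun1W* call was lost in 10 of 22 alternatives, with adjusted p over all 22 between 3.5e-05 and 0.125, and without the first Col-0 library the log2 change was 0.33; the *gun1G* call was lost in 6 of 22, with adjusted p between 0.0137 and 0.0957. *PSY* did not differ between *gun1W* and *gun1G* beyond the threshold (log2 difference -0.16, 95% interval -0.56 to 0.24).

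Of the desaturation and isomerisation genes, *PDS* passed in *gun1M* and no other call was made against Col-0. *PDS* (AT4G14210, chromosome 4, 8190190 to 8195320, minus strand, 14 to 15 exons), phytoene desaturase and the target of the bleaching herbicide norflurazon, had 13.7, 12.1 and 12.7 scaled TPM in *gun1M*, against 9.87, 8.91 and 10.2 in Col-0. This was a log2 change of 0.38 ± 0.13 (SE) with adjusted p = 0.0423, and the call was lost in 13 of 22 alternatives, with adjusted p between 0.0289 and 0.122 over all of them. In *gun1W* (10.3, 12.3 and 12.4) and *gun1G* (12.8, 11.6 and 13.3) all libraries also stood above Col-0, with log2 changes of 0.25 (95% interval -0.03 to 0.52) and 0.35 (0.07 to 0.63) that did not pass (adjusted p = 0.17 and 0.103). The share of all models whose libraries separate in this way is not given here, so the separation is a description only.

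*ZDS* (AT3G04870, chromosome 3, 1342455 to 1346387, plus strand, 13 to 14 exons), ζ-carotene desaturase, passed in no comparison. Its libraries ranged from 13.6 to 19.9 scaled TPM in *gun1W*, 11.0 to 20.5 in marbled *gun1M* and 14.5 to 17.5 in green *gun1G*, against 10.8 to 18.6 in Col-0, and the groups overlapped. *CRTISO* (AT1G06820, chromosome 1, 2092946 to 2096784, minus strand, 12 to 13 exons), the carotenoid isomerase that delivers all-trans-lycopene, had 8.52, 6.90 and 7.96 scaled TPM in *gun1W*, 6.55, 4.93 and 7.49 in *gun1M*, 4.52, 3.85 and 6.21 in *gun1G* and 4.13, 5.76 and 5.24 in Col-0. All *gun1W* libraries lay above all libraries of *gun1G* and Col-0, yet neither difference passed: the log2 change was 0.55 against Col-0 (adjusted p = 0.0507) and 0.60 against *gun1G* (adjusted p = 0.0587). The first of these passed in 9 of 22 alternatives, with adjusted p between 9.5e-05 and 0.171. The ratio of *PSY* to *PDS* within a library averaged 1.82, 2.06 and 1.89 in *gun1W*, *gun1M* and *gun1G* and 1.44 in Col-0 (geometric means, n = 3 each), and did not differ over the 4 groups by an exact permutation test of F over all 15400 arrangements of the libraries (p = 0.141, adjusted over 5 ratios 0.176).

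At the lycopene branch the genes of the 2 cyclases took different patterns over the colour classes. *LYC* (AT3G10230, chromosome 3, 3164075 to 3166038, minus strand, 1 to 2 exons), lycopene β-cyclase, which serves both branches, was raised in the pale classes. It had 19.2, 18.0 and 16.6 scaled TPM in *gun1W* and 19.9, 19.2 and 13.4 in *gun1M*, against 12.7, 11.4 and 11.0 in *gun1G* and 10.2, 11.1 and 9.26 in Col-0. The *gun1W* and *gun1M* libraries all lay above those of *gun1G* and Col-0, and *gun1G* overlapped Col-0. The log2 change against Col-0 was 0.76 ± 0.16 in *gun1W* (SE, adjusted p = 0.00443) and 0.71 ± 0.16 in *gun1M* (adjusted p = 0.00696), and 0.19 in *gun1G* (95% interval -0.15 to 0.53, adjusted p = 0.474). Set directly against *gun1G*, *LYC* was 0.58 higher in *gun1W* (adjusted p = 0.032), a call lost in 7 of 22 alternatives (adjusted p between 1.7e-05 and 0.104), and the 0.52 of *gun1M* did not pass (adjusted p = 0.0827).

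*LUT2* (AT5G57030, chromosome 5, 23077120 to 23080096, plus strand, 11 exons), lycopene ε-cyclase and the committed step towards lutein, was raised in all 3 classes and with its highest mean in the green one. It had 7.06, 5.96 and 6.48 scaled TPM in *gun1W*, 8.35, 8.27 and 7.09 in marbled *gun1M* and 8.68, 8.80 and 9.66 in green *gun1G*, against 3.42, 4.26 and 4.86 in Col-0. No mutant library reached down to Col-0, and the 3 mutant classes did not overlap each other. The log2 change was 0.54 ± 0.14 (SE, adjusted p = 0.0153) in *gun1W*, 0.79 ± 0.14 (adjusted p = 0.00234) in *gun1M* and 0.96 ± 0.14 (adjusted p = 0.00269) in *gun1G*. With 0.5 or 0.1 in place of 1 added before the log, the *gun1G* change was 1.04 or 1.11, over 2-fold. Without the first Col-0 library the *gun1W* change did not pass (adjusted p = 0.0677). The direct difference between *gun1W* and *gun1G* was -0.42 (95% interval -0.73 to -0.12) and did not pass (adjusted p = 0.0707). *LUT2* starts inside the annotated end of AT5G57020 on the same strand, over 74 bases, and a read-through model joining both genes was listed at 0 in 10 of 12 libraries and at no more than 0.164 TPM in the others. AT3G10220 and the non-coding AT3G02305 overlap *LYC* from the opposite strand by 157 and 199 bases, and opposite-strand genes also overlap *PSY* (AT5G17220, 108 bases), *ZDS* (AT3G04880, 115 bases) and *BETA-OHASE2* (AT5G52560, 19 bases). The libraries were directional, but whether the quantification used strand is not given in the sources used here, so reads from these overlaps may have been counted for either gene.

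The balance of the cyclases was taken as the ratio of *LYC* to *LUT2* TPM within each library, which does not depend on the scaling between libraries. The ratio was 2.73, 3.02 and 2.57 in *gun1W*, 2.38, 2.32 and 1.90 in marbled *gun1M* and 1.47, 1.30 and 1.14 in green *gun1G*, against 2.98, 2.60 and 1.90 in Col-0. It differed over the 4 groups (exact permutation test of F, p = 0.00461, adjusted over 5 ratios 0.0115), and the adjusted p stayed between 0.00227 and 0.0287 in 14 alternatives. All *gun1G* libraries lay below those of the other groups, at 0.528 times the Col-0 ratio, whereas *gun1W* and *gun1M* overlapped Col-0 at 1.13 and 0.891 times. With 3 against 3 libraries the smallest 2-sided exact p is 0.1, which the *gun1G* comparisons with Col-0, *gun1W* and *gun1M* each reached. The comparison of *gun1W* with *gun1M* reached it too, with all *gun1W* libraries above those of *gun1M*, at 1.27 times their ratio. Against Col-0, *LUT2* alone of the cyclase genes passed in the green class, and both passed in the pale classes.

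**Figure D3:**
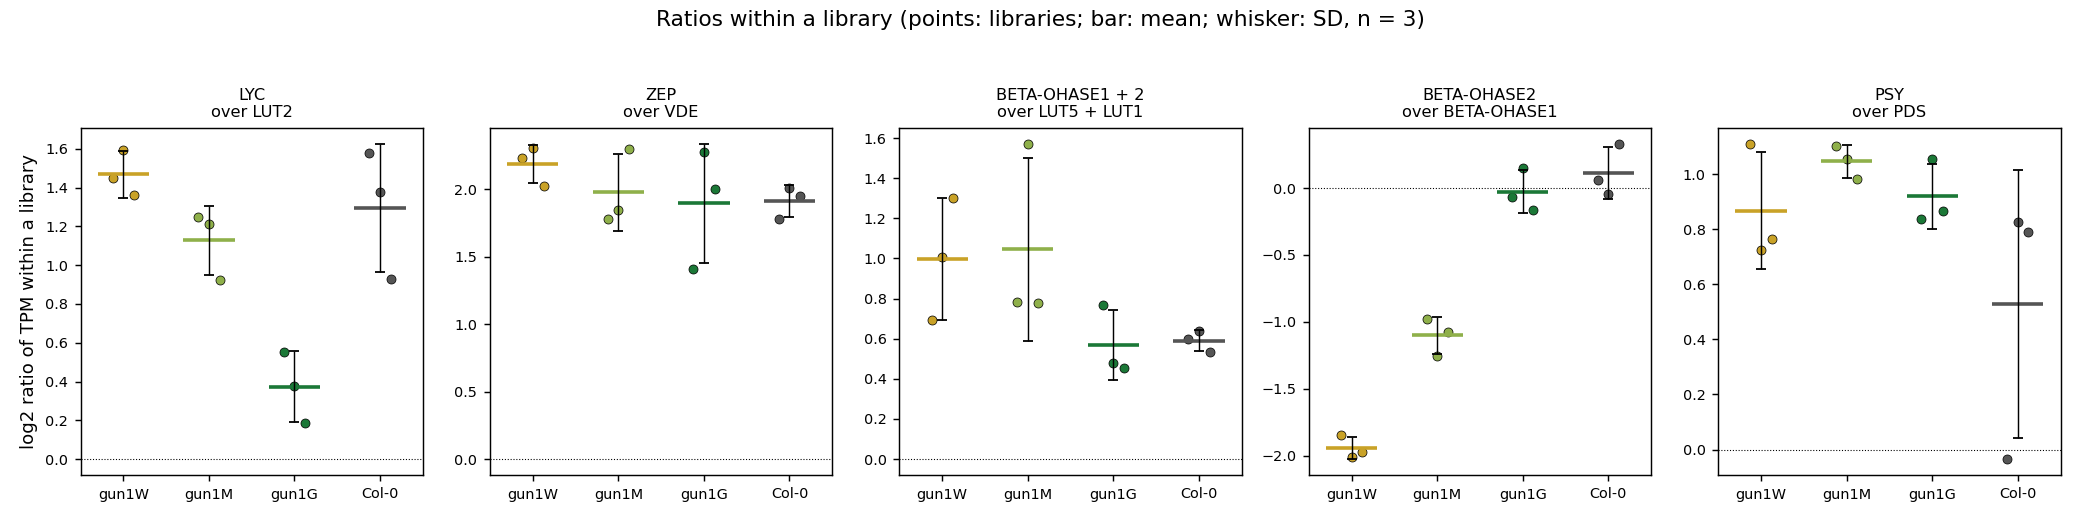
The log2 ratio of TPM within a library (y axes) for 5 ratios, by group; points are libraries, bars are means and whiskers are SD (n = 3), and the dotted line marks equal TPM. *LYC* over *LUT2* is lowest in *gun1G*, and *BETA-OHASE2* over *BETA-OHASE1* averages -1.94 in *gun1W*, -1.10 in *gun1M*, -0.03 in *gun1G* and 0.11 in Col-0.

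A pair of genes encodes the non-haem β-ring hydroxylases, which turn β-carotene into zeaxanthin. Of all members, 1 of this pair alone was called at 2-fold on log2(scaled TPM + 1). *BETA-OHASE1* (AT4G25700, chromosome 4, 13093869 to 13096049, minus strand, 4 to 7 exons) had 21.9, 28.7 and 36.1 scaled TPM in *gun1W* and 25.5, 33.0 and 22.9 in *gun1M*, against 15.8, 11.5 and 13.6 in *gun1G* and 7.25, 10.5 and 9.29 in Col-0. White and marbled seedlings stood apart from green and wild-type ones without overlap, and the green ones lay above Col-0. The log2 change was 1.56 ± 0.21 in *gun1W* (SE, 2.95-fold, adjusted p = 0.000364), 1.49 ± 0.21 in *gun1M* (2.80-fold, adjusted p = 0.000653) and 0.55 ± 0.21 in *gun1G*, which did not pass (adjusted p = 0.12). Against *gun1G* it was 1.01 ± 0.21 higher in *gun1W* (adjusted p = 0.0093) and 0.94 ± 0.21 higher in *gun1M* (adjusted p = 0.0302). The *gun1M* call against *gun1G* was lost in 8 of 22 alternatives, with adjusted p between 0.00936 and 0.1275.

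*BETA-OHASE2* (AT5G52570, chromosome 5, 21334793 to 21337126, minus strand, 5 to 7 exons), its paralogue, did not follow it. It had 6.09, 7.14 and 9.22 scaled TPM in *gun1W*, 13.0, 13.8 and 10.9 in marbled *gun1M* and 15.1, 12.7 and 12.1 in green *gun1G*, against 7.56, 10.2 and 11.7 in Col-0. White seedlings were the lowest, green ones the highest, and both stood next to Col-0 (*gun1W* overlapped it and *gun1G* lay just above): the log2 change was -0.35 in *gun1W* (95% interval -0.75 to 0.06, adjusted p = 0.186), 0.34 in *gun1M* (adjusted p = 0.184) and 0.42 in *gun1G* (adjusted p = 0.173), and with TPM as deposited the first turned to 0.60. Between the mutant classes, *gun1W* fell by 0.77 ± 0.19 against *gun1G* (SE, adjusted p = 0.0196), a call lost with its sign kept in 6 of 22 alternatives. With TPM as deposited the call was lost as well, and the difference turned to 0.14 (adjusted p = 0.578, the highest of a range that began at 0.0139). Its difference of -0.69 between *gun1W* and *gun1M* had the only unadjusted p under 0.05 among the members in that comparison (0.0031, adjusted 0.194), in which 0 of 10 members and 0.185% of all models passed.

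The ratio within this pair had the smallest p of the 5 ratios. *BETA-OHASE2* over *BETA-OHASE1* was 0.278, 0.249 and 0.255 in *gun1W*, 0.509, 0.419 and 0.475 in marbled *gun1M* and 0.953, 1.11 and 0.893 in green *gun1G*, against 1.04, 0.968 and 1.26 in Col-0. The 3 libraries of *gun1W* lay below those of *gun1M*, and these below those of *gun1G*, while *gun1G* overlapped Col-0. The test over the 4 groups gave p = 0.00026 (exact permutation of F, adjusted over 5 ratios 0.0013, the smallest possible p being 6.5e-05), and the adjusted p was 0.000649 to 0.0217 in 14 alternatives. The ratio was 0.241 times that of Col-0 in *gun1W*, 0.431 times in *gun1M* and 0.906 times in *gun1G*; the first 2 reached the smallest exact p of 0.1 and the last had exact p = 0.4. Reads of the 2 genes are separable in most of their length. Their coding sequences, 933 and 912 bases long, are 83.7% identical over 887 aligned bases, but their annotated transcripts share 3 of 1762 stretches of 31 bases and no run longer than 33 bases.

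The regions upstream of this pair are shown because the genes moved apart. The sequences are the 250 bases before each gene's annotated start in the RefSeq TAIR10.1 genome, on the strand of the gene. BETA-OHASE1 is read from chr4:13096050-13096299, minus strand, and BETA-OHASE2 from chr5:21337127-21337376, minus strand. Capitals mark matches, on either strand, to the G-box CACGTG, bound by HY5 and by phytochrome-interacting factors, or to ATCTA, a motif described in the *PSY* promoter.
BETA-OHASE1: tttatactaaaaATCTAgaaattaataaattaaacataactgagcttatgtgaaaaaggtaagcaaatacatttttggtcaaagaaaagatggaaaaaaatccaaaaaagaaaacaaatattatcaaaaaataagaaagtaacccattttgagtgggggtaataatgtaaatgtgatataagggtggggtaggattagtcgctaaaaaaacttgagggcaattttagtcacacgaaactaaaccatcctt
BETA-OHASE2: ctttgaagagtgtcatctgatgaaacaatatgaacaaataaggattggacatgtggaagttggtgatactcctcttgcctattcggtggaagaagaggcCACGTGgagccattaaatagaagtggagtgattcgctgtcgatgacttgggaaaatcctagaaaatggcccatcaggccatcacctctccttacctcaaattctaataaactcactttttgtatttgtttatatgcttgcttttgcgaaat
*BETA-OHASE2* carries a CACGTG whose first base lies at -151 and *BETA-OHASE1* an ATCTA at -238. In the window from 250 bases before to 50 bases after the start, CACGTG was found in 1 of 10 members, the one shown, and in 7.68% of 27443 promoters of nuclear protein-coding genes. ATCTA was found in 5 of 10 members (*PDS*, *ZDS*, *CRTISO*, *LUT2* and *BETA-OHASE1*) and in 54% of all promoters, with 3 overlapping matches in *CRTISO* that begin at -70, -66 and -62. The 2 motifs share no overlapping match in these windows. A match is a description of letters, and binding was not measured.

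The lutein branch has hydroxylases of its own, the cytochrome P450 enzymes LUT5 and LUT1. *LUT5*, which acts on the β-ring, had 12.1, 13.4 and 13.7 scaled TPM in *gun1W*, 17.3, 12.1 and 14.5 in marbled *gun1M* and 15.3, 13.9 and 15.0 in green *gun1G*, against 6.66, 9.81 and 9.87 in Col-0. It was higher in all 3 classes, by 0.54, 0.68 and 0.70 on the log2 scale (adjusted p = 0.0341, 0.0116 and 0.0261). Of 6 other carotenoid enzymes listed, *LUT5* alone passed, so 1 was higher and 0 lower in each class. Of all models, 15.1%, 15.4% and 5.75% passed as higher in *gun1W*, *gun1M* and *gun1G*. *LUT1*, which acts on the ε-ring, did not pass in any class, with log2 changes of 0.30, 0.24 and -0.11. The ratio of both non-haem hydroxylases to both P450 hydroxylases was 1.61 to 2.46 in *gun1W*, 1.72 to 2.97 in *gun1M*, 1.37 to 1.70 in *gun1G* and 1.45 to 1.56 in Col-0. The *gun1W* and *gun1M* libraries all lay above Col-0, but the 4 groups did not differ by the exact permutation test of F (p = 0.127, adjusted 0.176).

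The xanthophyll cycle genes passed in none of the 6 comparisons. *ZEP* (AT5G67030, chromosome 5, 26753469 to 26757402, minus strand, 16 exons), zeaxanthin epoxidase, which makes violaxanthin and feeds abscisic acid synthesis, was the most abundant member in Col-0. It had 34.5, 28.0 and 20.5 scaled TPM in *gun1W*, 27.3, 26.3 and 35.3 in marbled *gun1M* and 23.6, 31.6 and 34.0 in green *gun1G*, against 18.9, 24.0 and 29.5 in Col-0. The groups overlapped throughout, with log2 changes of 0.18, 0.29 and 0.30 and adjusted p = 0.58, 0.341 and 0.427. *VDE* (AT1G08550, chromosome 1, 2706868 to 2709988, plus strand, 5 to 6 exons), violaxanthin de-epoxidase of the thylakoid lumen, which forms zeaxanthin in strong light, had 7.34, 5.68 and 5.02 scaled TPM in *gun1W*, 7.93, 7.28 and 7.14 in marbled *gun1M* and 8.88, 6.53 and 8.47 in green *gun1G*, against 5.50, 5.95 and 7.63 in Col-0. Its log2 changes were -0.07 (95% interval -0.44 to 0.30), 0.21 (-0.16 to 0.58) and 0.28 (-0.09 to 0.66), and in TPM as deposited the first turned to 0.84. AT1G08560 overlaps *VDE* from the opposite strand by 464 bases.

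*ZEP* over *VDE* averaged 4.56 in *gun1W*, 3.94 in *gun1M*, 3.72 in *gun1G* and 3.77 in Col-0 (geometric means, n = 3 each), with libraries from 4.08 to 4.94 in *gun1W* and from 3.44 to 4.04 in Col-0. The 4 groups did not differ (exact permutation test of F, p = 0.595, adjusted 0.595), although the 3 *gun1W* libraries lay above the 3 Col-0 ones. The difference was 0.27 on the log2 scale, with the smallest possible exact p of 0.1.

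Between colour classes, 3 of 10 members differed in *gun1W* minus *gun1G* (*LYC* and *BETA-OHASE1* higher, *BETA-OHASE2* lower), where 13.1% of all models passed. The same fit called 1 of 10 in *gun1M* minus *gun1G* (*BETA-OHASE1* higher), where 4.16% passed. At 2-fold the numbers were 1 of 10 for *gun1W* minus *gun1G*, beside 5% of all models, and 0 of 10 for *gun1M* minus *gun1G*, beside 2.02%. In *gun1M* minus *gun1G* 2 members had an unadjusted p under 0.05 by limma at any size, and the share of all models under that p was not counted. Without *gun1W* library 1 or 2 or *gun1G* library 2, 1 member passed in *gun1W* minus *gun1G*, and without *gun1W* library 3 or *gun1G* library 2 none reached 2-fold there. In *gun1M* minus *gun1G* the number was 0 without *gun1W* library 2, *gun1M* library 1 or 2 or *gun1G* library 2 or 3, and 2 without *gun1M* library 3. The median nuclear gene stood 0.80 higher on the log2 scale in *gun1W* than in *gun1G* in TPM as deposited, and the lower values of *PSY*, *PDS*, *LUT2*, *BETA-OHASE2*, *ZEP* and *VDE* in *gun1W* than in *gun1G* all turned to higher ones in that unit. In order of mean scaled TPM, which is per transcript length, *BETA-OHASE1* was first in *gun1W* (28.9 ± 7.12) next to *ZEP* (27.7 ± 7.001), within their spread. In Col-0 *ZEP* (24.1 ± 5.29) was followed by *PSY* (14.3 ± 4.17) and *ZDS* (13.9 ± 4.16), which did not differ beyond their spread, then by *LYC* (10.2 ± 0.92), *BETA-OHASE2* (9.81 ± 2.10), *PDS* (9.65 ± 0.66) and *BETA-OHASE1* (9.02 ± 1.64), which lay within 1 SD of each other, and *LUT2* (4.18 ± 0.73) was last, below *CRTISO* (5.04 ± 0.84).

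Single transcripts carried the gene-level differences in part. Of 25 member transcripts with enough signal, 2 passed in *gun1W*, 4 in *gun1M* and 0 in *gun1G* (limma over 32831 transcripts, adjusted p of 0.05), where 8.6%, 10.4% and 1.89% of all transcripts passed. The main *BETA-OHASE1* transcript, AT4G25700.3, held 93.2% to 100% of the gene's TPM in every library and was 1.52 higher on the log2 scale in *gun1W* (adjusted p = 0.00168) and 1.44 higher in *gun1M* (adjusted p = 0.00293). The main *PSY* transcript, AT5G17230.6, was 0.88 higher in *gun1M* (adjusted p = 0.0222), as was the main *LYC* transcript AT3G10230.3 by 0.68 (adjusted p = 0.0473). *CRTISO* transcript AT1G06820.12 had 4.15, 3.34 and 4.25 scaled TPM in *gun1W* and 2.97, 3.27 and 3.10 in *gun1M*, against 0, 2.01 and 0 in Col-0. An exact 0 beside a detected gene can be a failed split between isoforms, so its changes of 1.76 and 1.51 on the log2 scale (adjusted p = 0.0148 and 0.029) are given without a fold; in *gun1G* it had 3.40, 2.46 and 4.44 scaled TPM (adjusted p = 0.0568). Without the first Col-0 library 1 member transcript passed in any comparison with Col-0, and without Col-0 library 2 or 3, or *gun1M* library 2, 2 did, in place of 4. The main *ZEP* transcript, AT5G67030.12, held 50.3%, 62.2% and 30.8% of *ZEP* TPM in *gun1W*, 53.1%, 56.5% and 70.6% in marbled *gun1M* and 70.2%, 66.3% and 56.7% in green *gun1G*, against 73.4%, 76.2% and 81.0% in Col-0. All 9 mutant libraries lay below the 3 Col-0 libraries in this share, which was not tested.

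Steps next to the pathway were read from lists of genes chosen for their function. In the isoprenoid supply, the plastid methylerythritol phosphate pathway and prenyl synthases, 0 of 10 genes were higher and 3 lower in *gun1W*, 1 higher and 1 lower in *gun1M*, and 1 higher and 0 lower in *gun1G*. In either direction 27.7%, 29% and 9.38% of all models passed in these comparisons, so the *gun1W* count was near the share of all models. In *gun1W* the first and the last 2 enzymes fell: *DXS* by 0.70 (adjusted p = 0.01), *HDS* by 0.57 (adjusted p = 0.00881) and *HDR* by 1.05 (adjusted p = 0.0125) on the log2 scale. *HDR* had 38.5, 36.1 and 22.8 scaled TPM in *gun1W* and 35.2, 28.1 and 54.5 in *gun1M*, where it fell by 0.80 (adjusted p = 0.0395), against 59.6, 56.4 and 88.0 in Col-0. *DXR*, the second enzyme, was higher in *gun1M* by 0.62 and in *gun1G* by 0.54 (adjusted p = 0.00933 and 0.0411).

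**Figure D4:**
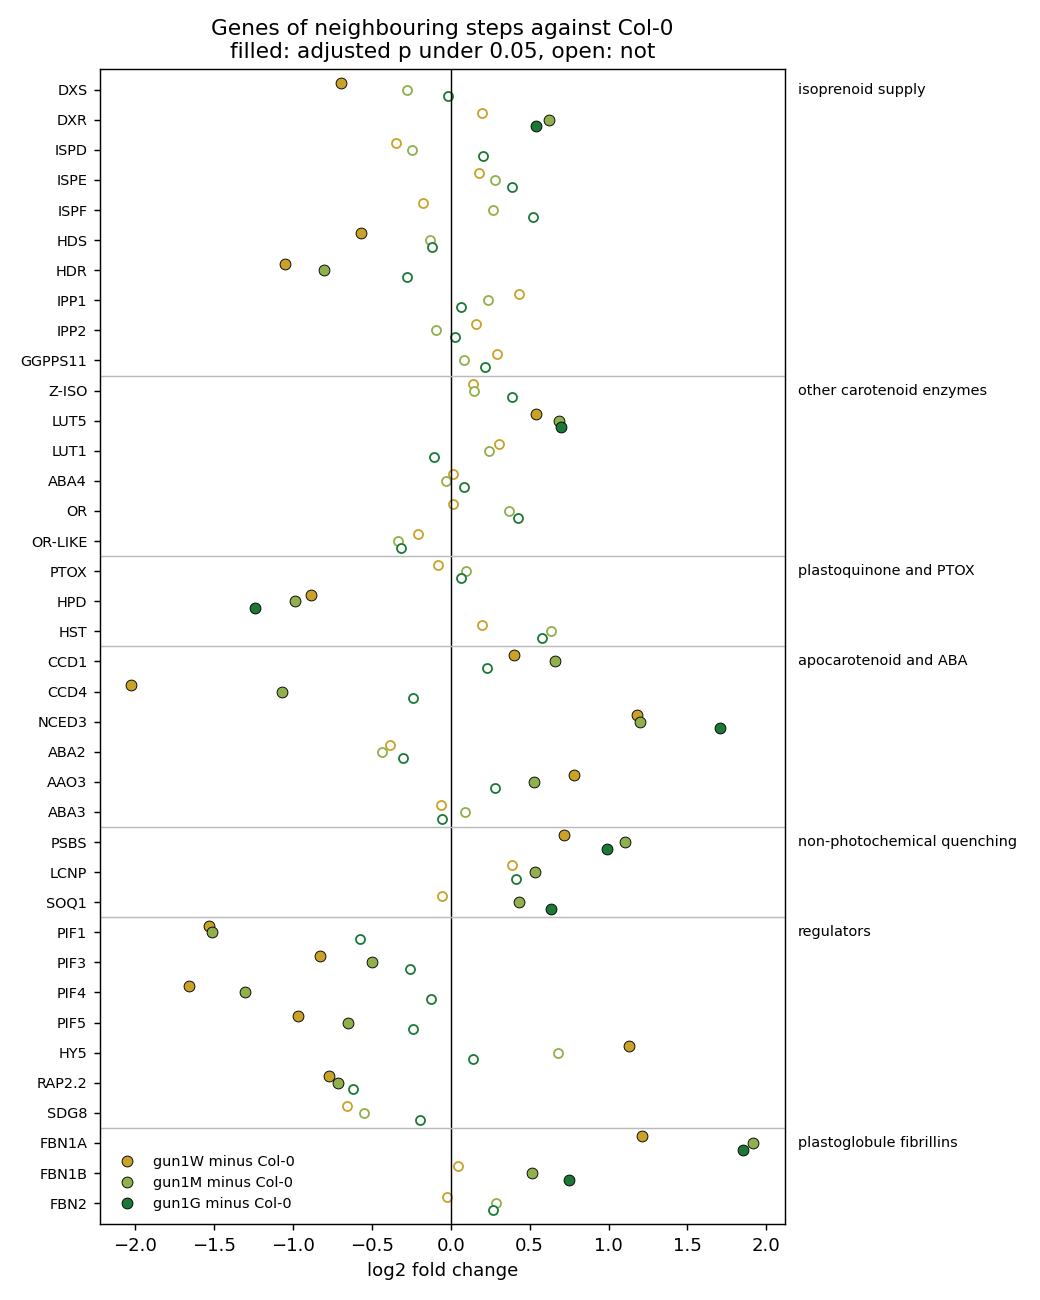
Log2 change against Col-0 (x axis) of the tested genes in 7 lists around the pathway, 1 gene a line, coloured by mutant class; filled points passed an adjusted p of 0.05 by limma. *HPD* is filled and lower in all 3 classes, *LUT5*, *NCED3*, *PSBS* and *FBN1A* are filled and higher in all 3, and *CCD4* and the *PIF* genes are filled and lower in *gun1W* and *gun1M*, with *PIF* values nearer to 0 in *gun1G*.

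Desaturation needs plastoquinone as electron acceptor. Of the 3 genes of plastoquinone synthesis and its oxidase PTOX, 1 was lower in each class and none higher, beside 27.7%, 29% and 9.38% of all models in either direction. This gene, *HPD*, 4-hydroxyphenylpyruvate dioxygenase, had 22.1, 21.9 and 16.2 scaled TPM in *gun1W*, 22.8, 12.8 and 21.4 in marbled *gun1M* and 17.3, 16.3 and 12.8 in green *gun1G*, against 45.8, 28.3 and 40.6 in Col-0. It fell by 0.88, 0.99 and 1.24 on the log2 scale (adjusted p = 0.0181, 0.0107 and 0.0111).

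Of 12 genes that cleave carotenoids or make abscisic acid, 6 passed the filter, and of these 3 were higher and 1 lower in *gun1W* and in *gun1M*, with 1 higher and 0 lower in *gun1G*, beside 27.7%, 29% and 9.38% of all models in either direction. *CCD4*, a carotenoid cleavage dioxygenase of plastoglobules that limits carotenoid content in seeds, had 6.84, 7.17 and 5.50 scaled TPM in *gun1W*, 11.4, 15.7 and 13.7 in marbled *gun1M* and 18.5, 26.3 and 31.2 in green *gun1G*, against 25.9, 34.2 and 28.6 in Col-0. It fell by 2.02 in *gun1W* (adjusted p = 4.6e-05) and by 1.07 in *gun1M* (adjusted p = 0.00287), with -0.24 in *gun1G* (adjusted p = 0.473). *NCED3*, the dioxygenase that commits epoxycarotenoids to abscisic acid under drought, was higher in all 3 classes, 2.27-fold, 2.30-fold and 3.26-fold on this scale (adjusted p = 0.0228, 0.021 and 0.0122). *AAO3*, the oxidase of the last step to abscisic acid, was higher in *gun1W* by 0.78 and in *gun1M* by 0.53 (adjusted p = 0.00216 and 0.0167), and *CCD1*, a cytosolic cleavage enzyme, by 0.40 and 0.66 (adjusted p = 0.0202 and 0.00175).

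Of 3 listed genes of the non-photochemical quenching of light energy, 1 was higher in *gun1W*, all 3 in *gun1M* and 2 of them in *gun1G*, with none lower, where 15.1%, 15.4% and 5.75% of all models passed as higher. *PSBS*, the photosystem II protein that senses lumen acidity, was higher by 0.72, 1.11 and 0.99 (adjusted p = 0.0201, 0.00242 and 0.0131) in *gun1W*, *gun1M* and *gun1G*. *LCNP*, the plastid lipocalin of a sustained quenching that does not need PsbS or zeaxanthin, was higher in *gun1M* by 0.54 (adjusted p = 0.0262), and *SOQ1*, a suppressor of that quenching, in *gun1M* by 0.43 and in *gun1G* by 0.64 (adjusted p = 0.0306 and 0.0152). Of 3 fibrillins, proteins of the plastoglobules in which carotenoids are stored, 1, 2 and 2 were higher in *gun1W*, *gun1M* and *gun1G* and none lower, where 15.1%, 15.4% and 5.75% of all models passed as higher. *FBN1A* was higher by 1.21, 1.92 and 1.85 (adjusted p = 0.0229, 0.00248 and 0.00988) and *FBN1B* was so in *gun1M* by 0.51 and in *gun1G* by 0.75 (adjusted p = 0.0402 and 0.0205).

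Among 7 regulators of the pathway, 1 was higher and 5 were lower in *gun1W*, 0 higher and 5 lower in *gun1M*, and none passed in *gun1G*. Of all models, 27.7%, 29% and 9.38% passed in either direction. In *gun1G* limma gave 2 regulators with an unadjusted p under 0.05, and the share of all models under that p was not counted. *PIF1*, a phytochrome-interacting factor that represses *PSY* in the dark, had 2.55, 2.98 and 3.62 scaled TPM in *gun1W*, 2.50, 3.89 and 2.98 in marbled *gun1M* and 4.86, 7.03 and 9.14 in green *gun1G*, against 9.76 to 12.2 in Col-0. It fell by 1.53 in *gun1W* and by 1.51 in *gun1M* (adjusted p = 0.00039 and 0.000576). Its relatives *PIF3*, *PIF4* and *PIF5* fell by 0.83, 1.66 and 0.96 in *gun1W* (adjusted p = 0.00155, 0.000383 and 0.00401) and by 0.50, 1.30 and 0.65 in *gun1M* (adjusted p = 0.0218, 0.00192 and 0.0265). The other regulators that passed, named here after their values were seen, were *RAP2.2*, an ethylene response factor that binds the ATCTA motif, which fell by 0.77 in *gun1W* and by 0.71 in *gun1M* (adjusted p = 0.011 and 0.0156), and *HY5*, a light-signalling activator of *PSY*, which was 1.13 higher in *gun1W* (adjusted p = 0.0256).

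For each member, the nuclear gene model with the most similar profile over the 12 libraries was sought among 8795 with a mean of at least 5 TPM; the profiles follow the 4 groups, so Pearson's r describes group differences as well as libraries. *BETA-OHASE1* was closest to *CRF6*, a cytokinin response factor (r = 0.99), *LYC* to the plastid nucleobase transporter gene *NCS1* (r = 0.97), *LUT2* to the protoporphyrinogen oxidase gene *PPOX* (r = 0.96), and *BETA-OHASE2* to *CSP41A*, a chloroplast RNA-binding protein gene (r = 0.95). *PSY* was closest to AT3G01060 (r = 0.95), *ZEP* to the chlorophyll synthesis gene *PCB2* (r = 0.93), *PDS* to the kinase gene *STY8* (r = 0.93), *ZDS* to the DnaJ protein gene AT2G22360 (r = 0.92) and *CRTISO* to the plastid protease gene *SPPA* (r = 0.90). *VDE* had the weakest best match, AT5G61670, which encodes ORANGE, a chaperone of phytoene synthase (r = 0.87).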

How the data were processed

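RNA was sequenced from rRNA-depleted directional libraries, 3 for each of *gun1W*, *gun1M*, *gun1G* and Col-0. Per the labels and the submitters' processing notes, the authors trimmed reads with Trimmomatic, checked them with FastQC and used STAR and Salmon with the AtRTD3 transcripts (build TAIR10); versions are not given in the sources used here. The deposited values were TPM per transcript (168507 transcripts, 40215 gene models), already divided by transcript length and summing to the same total in each library, so read depth is unknown and no counting interval can be given.

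TPM of a gene model's transcripts were added, and libraries were scaled to the same median over 12490 nuclear genes that had at least 1 TPM in all 12 libraries. Gene models outside the plastid genome with at least 1 TPM in at least 3 libraries were fitted with limma 3.58.1 (R 4.3.3, trend) on log2(scaled TPM + 1) over all 12 libraries, with Benjamini-Hochberg adjustment over 18373 models in each of 6 comparisons. A change on this scale understates that of low genes. Adjusted p under 0.05 passed, and 2-fold calls also needed a change of 1 on the log2 scale. That the libraries of compared groups did not overlap is a description, and the share of all models that separate so is not given. Ratios within a library were tested by exact permutation, 2-sided, with nothing added. Coordinates and sequences came from RefSeq TAIR10.1. The fit was tested on simulated data. Python 3.11.15, pandas 2.3.3, numpy 2.4.6, Biopython 1.88 and matplotlib 3.10.9 were used.

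The labels do not say that replicates came from separate cultures, so p-values measure only the spread between these samples. The 18 same-numbered pairs of libraries deviated together with r between -0.29 and 0.31, over 0.1 in 4, and replicate numbers were not used as pairs. Members, lists and tests were chosen with earlier results of these data known. Besides the 10 members and the genes of the ratios, the rule named, per neighbouring list, up to 4 genes that passed in a comparison with Col-0, those of smallest adjusted p in *gun1W*, and for each member the nuclear gene of highest Pearson r among those with a mean of at least 5 TPM. Alternatives were another added value (0.5 or 0.1), another filter or none, TPM as deposited, nuclear genes summed to 1 total, quantile normalization, a replicate block, the share of AT3G06365 as covariate, the 6 libraries of a comparison alone, and each library left out. For single transcripts, the block and the left-out libraries were chosen after seeing the data.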

Additional observations from a re-analysis of the deposited data

How the results depend on the processing

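Over 924 alternatives for the changes of single members, 831 kept their direction and side of the threshold. With the direction kept, 51 lost the call and 18 gained one. The other 24 changed sign and were counted apart, whether or not their call changed. The cause of these changes was not tested. The 5 ratios kept their calls in all 14 alternatives each. TPM as deposited, in which the median nuclear gene stood 0.82 higher in *gun1W*, 0.18 in *gun1M* and 0.03 in *gun1G* than in Col-0, called 10 members (8 at 2-fold) in *gun1W* minus Col-0, 2 at 2-fold in *gun1M* minus Col-0, 9 (4 at 2-fold) in *gun1W* minus *gun1G*, 2 (1 at 2-fold) in *gun1M* minus *gun1G*, 7 in *gun1W* minus *gun1M*, and 9 transcripts. In that unit 12406 of all 18373 models passed in *gun1W* minus Col-0, 12338 in *gun1W* minus *gun1G* and 10065 in *gun1W* minus *gun1M*. The share of all models at 2-fold was not counted there. TPM as deposited turned *BETA-OHASE2* to 0.60 and *VDE* to 0.84 in *gun1W* minus Col-0, *PSY* to 0.80, *PDS* to 0.83, *LUT2* to 0.47, *BETA-OHASE2* to 0.14, *ZEP* to 0.85 and *VDE* to 0.52 in *gun1W* minus *gun1G*, and *BETA-OHASE2* to 0.025 in *gun1W* minus *gun1M*.

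Nuclear genes summed to 1 total (the median gene then 0.18, 0.16 and 0.17 higher than in Col-0) gave 2 at 2-fold in *gun1M* and 1 in *gun1G* minus Col-0, 1 in *gun1W* minus *gun1G* and 0 in *gun1M* minus *gun1G*, with *VDE* at 0.14 in *gun1W* and *CRTISO* at 0.14 in *gun1G*. Quantile normalization gave 0 at 2-fold in *gun1W* minus *gun1G*, with *ZDS* at -0.026 in *gun1M* minus Col-0 and -0.015 in *gun1W* minus *gun1G*. The AT3G06365 covariate gave 1 in *gun1G* minus Col-0 and 2 (1 at 2-fold) in *gun1M* minus *gun1G*, with *CRTISO* at 0.17 in *gun1G* and *ZDS* at -0.39 in *gun1W* minus *gun1G*. The 6 libraries alone gave 1 in *gun1G* minus Col-0 and 0 in *gun1M* minus *gun1G*, no filter 0 in *gun1M* minus *gun1G*, and an added 0.5 or 0.1 gave 1 at 2-fold in *gun1G* minus Col-0.

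Leaving out 1 library gave 2 to 5 members in *gun1W*, 1 to 2 in *gun1G*, 1 to 4 in *gun1W* minus *gun1G* and 0 to 2 in *gun1M* minus *gun1G*; at 2-fold 1 to 2 in *gun1M*, 0 to 1 in *gun1G*, 0 to 1 in *gun1W* minus *gun1G* and 0 to 1 in *gun1M* minus *gun1G*; and 1 to 5 transcripts. *VDE* lay between -0.20 and 0.049 in *gun1W*, *ZDS* between -0.20 and 0.27 in *gun1M* and between -0.027 and 0.23 in *gun1W* minus *gun1G*, *CRTISO* between -0.21 and 0.073 in *gun1G*, and *ZEP* between -0.28 and 0.079 in *gun1W* minus *gun1G*.

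With the replicate block, 4 members passed in *gun1W*, 4 in *gun1M*, 2 in *gun1G*, 3 in *gun1W* minus *gun1G* and 1 in *gun1M* minus *gun1G*; by limma the adjusted p was 0.0559 for *PSY* and 0.0496 for *CRTISO* in *gun1W* and 0.062 for *PDS* in *gun1M*. The ratio of *LYC* to *LUT2* had an adjusted p of 0.0217 in the exact permutation within the block, as did that of the hydroxylases.

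The numbers of all gene models that passed also moved by over 1.5 times. In place of 5081 in *gun1W* minus Col-0, 1723 in *gun1G* minus Col-0, 2402 in *gun1W* minus *gun1G* and 34 in *gun1W* minus *gun1M*, TPM as deposited gave 12406, 904, 12338 and 10065. In *gun1G* minus Col-0 the covariate gave 479, and in *gun1M* minus *gun1G*, in place of 764, it gave 1974, the 6 libraries alone 126 and the nuclear sum 477. For *gun1W* minus *gun1M*, the nuclear sum gave 15, the block 13, the covariate 21 and the 6 libraries alone 0. Leaving out 1 library gave down to 3210 in *gun1W*, 3115 in *gun1M* (of 5330) and 466 in *gun1G* minus Col-0, 1313 in *gun1W* minus *gun1G*, 209 in *gun1M* minus *gun1G*, and 8 to 57 in *gun1W* minus *gun1M*.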
